A study of Mus musculus with 32 samples.

Results

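The enzymes of the pentose phosphate pathway are encoded in the mouse by 8 genes that were followed here through an RNA-sequencing study of inflamed cartilage cells. The genes were taken by name, as the enzymes of the pathway's classical reactions. No measured value set the rule, but the pathway was picked with earlier results of these data known. They make up 8 of the 41388 genes counted in each library, and each of the 8 passed the filter on low counts in every model.

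The pathway takes glucose 6-phosphate away from glycolysis. Its oxidative branch yields NADPH, the reductant that regenerates glutathione and thioredoxin and that also feeds NADPH oxidases, while its non-oxidative branch interconverts sugar phosphates and supplies ribose 5-phosphate for nucleotides. Chondrocytes, the cells of cartilage, live with little oxygen and draw strongly on glucose, and IL-1β is an inflammatory cytokine that drives them to degrade their matrix.

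The libraries came from primary sternal chondrocytes of newborn C57BL/6 mice, cultured without passaging, and 2 libraries were sequenced for each of 16 conditions, 32 in all. Wild-type cells received no virus and were left untreated or were given FX11 (40 µM), an inhibitor of lactate dehydrogenase A, IL-1β (10 ng/mL), or both for 24 h. Cells of 3 floxed lines (Nfkbiz f/f, Ldha f/f and Nampt f/f, called NFKBIZ flox, LDHA flox and NAMPT flox in the labels) were infected for 24 h with adenovirus carrying eGFP alone (GFP) or Cre with eGFP (Cre). They were then kept with or without IL-1β (10 ng/mL) for another 24 h. Both arms of every floxed line therefore carried loxP alleles and virus, and gene removal was an acute event in culture. Cells without floxed alleles received no Cre virus here, so the removal of a gene and the Cre virus itself cannot be told apart. Ldha encodes the lactate dehydrogenase subunit that FX11 targets, Nampt the enzyme of NAD salvage, and Nfkbiz the NF-κB cofactor IκBζ.

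The targeted transcripts followed their labels in the floxed lines. Levels are given throughout as CPM, the read count scaled to a common library size with TMM factors. Ldha stood at 937 and 876 CPM with GFP and at 119.8 and 111 CPM with Cre, and Nampt at 60.1 and 54.7 CPM against 6.77 and 6.80 CPM. Nfkbiz with IL-1β stood at 233 and 228 CPM with GFP and at 29.1 and 32 CPM with Cre. In wild-type cells 2 libraries ran against their labels. Mmp3, a matrix protease induced by IL-1β, was at 9293 CPM in the set 1 library labelled IL-1β but at 0.79 CPM in the set 2 library labelled IL-1β, and at 2033 CPM in the set 2 library labelled FX11. These libraries are named by their labels below, and wild-type values are given with and without them. Chondrocyte identity was checked with 9 markers, including Col2a1 and Acan, and all 9 were detected, with a summed level of 70846 to 90774 CPM in the 6 GFP libraries without IL-1β. Nothing in the labels states that the libraries of a condition came from separate cultures or animals, so p-values measure only the spread between these libraries, which may be technical. In bulk RNA, fewer cells of a type and less RNA per cell cannot be told apart.

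The oxidative branch is represented by G6pdx (ENSMUSG00000031400, chromosome X, 74409483 to 74429194), the glucose 6-phosphate dehydrogenase of the cytosol, H6pd (ENSMUSG00000028980, chromosome 4, 149979475 to 150009023), which works in the endoplasmic reticulum, Pgls (ENSMUSG00000031807, chromosome 8, 71592176 to 71601092), the lactonase, and Pgd (ENSMUSG00000028961, chromosome 4, 149149991 to 149166771), the 6-phosphogluconate dehydrogenase. The non-oxidative branch is represented by Rpia (ENSMUSG00000053604, chromosome 6, 70765720 to 70792232), ribose 5-phosphate isomerase, Rpe (ENSMUSG00000026005, chromosome 1, 66700831 to 66719805), ribulose 5-phosphate 3-epimerase, Tkt (ENSMUSG00000021957, chromosome 14, 30548359 to 30574722), transketolase, and Taldo1 (ENSMUSG00000025503, chromosome 7, 141392199 to 141402968), transaldolase. Positions are of GRCm38, and values were summed over the exons of each gene. Pgd and H6pd lie 812704 bases apart. Exons of G6pdx share 418 bases with Ikbkg and exons of Rpe share 558 bases with Kansl1l, in both cases on the other strand, and Pgls shares 776 bases with Fam129c on its own strand. Whether counting used the strand is not given in the sources used here, so reads from those stretches cannot be assigned with certainty.

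The promoters of Pgd and Taldo1 are shown because of their levels with IL-1β. These were the 2 members that fell after Cre at an adjusted p of 0.05 or less in each of the 3 lines. The sequences are those of RefSeq (GRCm38.p6), 5′ to 3′ on the strand of the gene and ending at most 250 bases upstream of the start, and for Pgd the bases that the gene annotation places inside the gene are left out. Capitals mark the motifs that were searched for.
Pgd, chr4:149166772-149166955, minus strand: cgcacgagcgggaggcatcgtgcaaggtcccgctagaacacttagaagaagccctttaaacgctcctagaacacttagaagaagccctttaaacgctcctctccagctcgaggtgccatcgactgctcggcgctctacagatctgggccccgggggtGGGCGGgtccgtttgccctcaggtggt
Taldo1, chr7:141391910-141392159, plus strand: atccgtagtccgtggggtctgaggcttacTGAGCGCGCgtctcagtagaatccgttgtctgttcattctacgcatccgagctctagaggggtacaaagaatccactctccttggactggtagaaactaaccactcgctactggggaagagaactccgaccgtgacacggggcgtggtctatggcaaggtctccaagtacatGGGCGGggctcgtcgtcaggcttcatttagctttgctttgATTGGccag
The stretch of Pgd holds 1 GC box. That of Taldo1 holds a match to TGANNNNGC, a loose form of the antioxidant response element, a GC box and a CCAAT box on the other strand.

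RefSeq start sites were matched for all 8 members, and 6 motifs were searched on both strands of the 250 bases before each start. The RefSeq start lay 5787 bases inside the annotated gene in H6pd, 772 in Tkt and 314 in G6pdx. Those windows thus lay within the annotated genes and do not describe the sequence before their annotated starts. In Pgd, Rpia and Pgls the start lay 66, 57 and 8 bases inside, so the last bases of their windows lay within the genes. The GC box of Rpia (-7 to -2) lay there. So did the CCAAT matches of Pgd (-46 to -42 and -9 to -5), which are left out of the stretch printed above. GGGCGG, the GC box, was present in 7 members, all but H6pd, and in 32.7% of all 32851 such windows. TGANNNNGC was present in G6pdx, Tkt and Taldo1 and in 35.2% of all windows, and CCAAT in H6pd, Pgd and Taldo1 and in 33.8%. No member window held TGANTCA, the AP-1 motif (6.75% of all windows), CACGTG, the E-box (6.02%), or the NF-κB consensus (3.90%). These matches describe the letters of the windows only, and TGANTCA and TGANNNNGC may overlap where they share their first bases.

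Per kilobase of exon, transaldolase and transketolase had the highest levels of the pathway. Over the 32 libraries the median level was 55.1 CPM per kb for Taldo1 and 51.9 CPM per kb for Tkt. G6pdx followed at 41.0 CPM per kb. Pgd stood at 24.4 CPM per kb, H6pd at 22.7 CPM per kb and Pgls at 19.2 CPM per kb. The isomerase and the epimerase were lowest, Rpe at 9.10 CPM per kb and Rpia at 1.87 CPM per kb. The length used takes in all counted exons of a gene, 1998 bases for Taldo1 and 6533 for Tkt, and is not that of a single transcript. Without division by length the median was 339 CPM for Tkt, 157 CPM for Pgd and 110 CPM for Taldo1, so the order depends on this measure. Between the lowest and the highest of the 16 condition means, Pgd spanned 2.91-fold and H6pd 2.54-fold, while Pgls spanned 1.57-fold and G6pdx 1.49-fold. G6pd2 (ENSMUSG00000089992, chromosome 5, 61808884 to 61810425), an intronless copy of the G6pdx coding sequence, was at 0.113 to 0.740 CPM, with a median of 0.414 CPM. It stayed under 1 CPM in every library and was not tested. Of the 50-base stretches of its transcript, 8.66% also occur in a G6pdx transcript, so its few reads are uncertain.

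**Figure D1:**
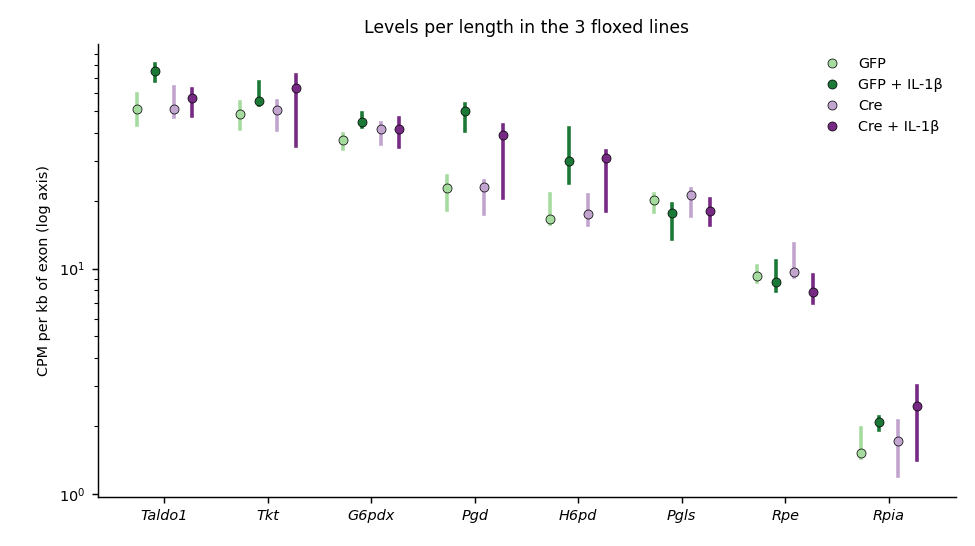
Levels of the 8 enzymes per kilobase of exon (TMM CPM per kb, log axis) in the 3 floxed lines, by virus and IL-1β; points are the median of 6 libraries and lines run from the lowest to the highest. Taldo1 and Tkt lie near the top and Rpia at the bottom in every group, and Pgd moves from 22.9 CPM per kb with GFP to 50.2 CPM per kb with GFP and IL-1β.

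IL-1β raised 6 of the 8 enzymes and lowered 1 in the mean over the 3 floxed lines with GFP virus, 6 libraries against 6. Pgd rose most, followed by H6pd and Taldo1, while Pgls fell. Of the 16727 genes tested in this model 52.9% were called at an adjusted p of 0.05 or less, 27.7% higher and 25.3% lower, so 7 of 8 members called is to be read against a majority of all genes. The median log2 fold change of all genes was 0.0175.

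In the oxidative branch, Pgd, which makes NADPH in the second dehydrogenase step, ranged from 116.9 to 165.7 CPM with a median of 147 CPM without IL-1β, and from 264 to 346 CPM with a median of 324 CPM with it. The ranges did not overlap. Its log2 fold change was 1.15 (SE 0.04, adjusted p = 2.64e-16). H6pd, which makes NADPH in the endoplasmic reticulum, moved from 82.9 to 112.3 CPM (median 87.3 CPM) to 125.6 to 219.9 CPM (median 157 CPM). Again no library of one group reached the other, and the log2 fold change was 0.86 (SE 0.04, adjusted p = 7.48e-16). G6pdx, the entry enzyme, rose by less. It ranged from 104.7 to 122.4 CPM (median 114 CPM) without IL-1β and from 131 to 151 CPM (median 138 CPM) with it, a log2 fold change of 0.33 (SE 0.04, adjusted p = 1.01e-07). Ikbkg, whose exons overlap those of G6pdx, had a log2 fold change of 0.43 and a level of 19.1 to 41.4 CPM over the 32 libraries. Pgls, which hydrolyses the lactone between the dehydrogenase steps, was the member that fell, from 67.0 to 80.8 CPM to 50.9 to 72.9 CPM, with overlapping ranges and a log2 fold change of -0.19 (SE 0.04, adjusted p = 0.000333).

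In the non-oxidative branch, Taldo1 rose most. It ranged from 87.0 to 119.0 CPM with a median of 102 CPM without IL-1β and from 136 to 161 CPM with a median of 151 CPM with it. The ranges were separate, and the log2 fold change was 0.57 (SE 0.05, adjusted p = 1.73e-10). Tkt, which exchanges carbon with transaldolase between sugar phosphates, moved from 272 to 358 CPM to 347 to 440.2 CPM. The highest libraries without IL-1β exceeded the lowest with it, and the log2 fold change was 0.31 (SE 0.04, adjusted p = 2.79e-07). Rpia rose by 0.39 on the log2 scale (SE 0.11, adjusted p = 0.00395), at levels of only 7.72 to 10.5 CPM and 10.3 to 11.8 CPM. Rpe, the epimerase, ranged from 27.2 to 32.1 CPM and from 24.8 to 33.6 CPM, and its log2 fold change of -0.03 (95% CI -0.14 to 0.08) had an adjusted p of 0.686. Ranges without and with IL-1β were thus separate for 4 members, G6pdx, H6pd, Pgd and Taldo1. The share of all genes with separate ranges was not counted, so this count has no background to be read against.

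**Figure D2:**
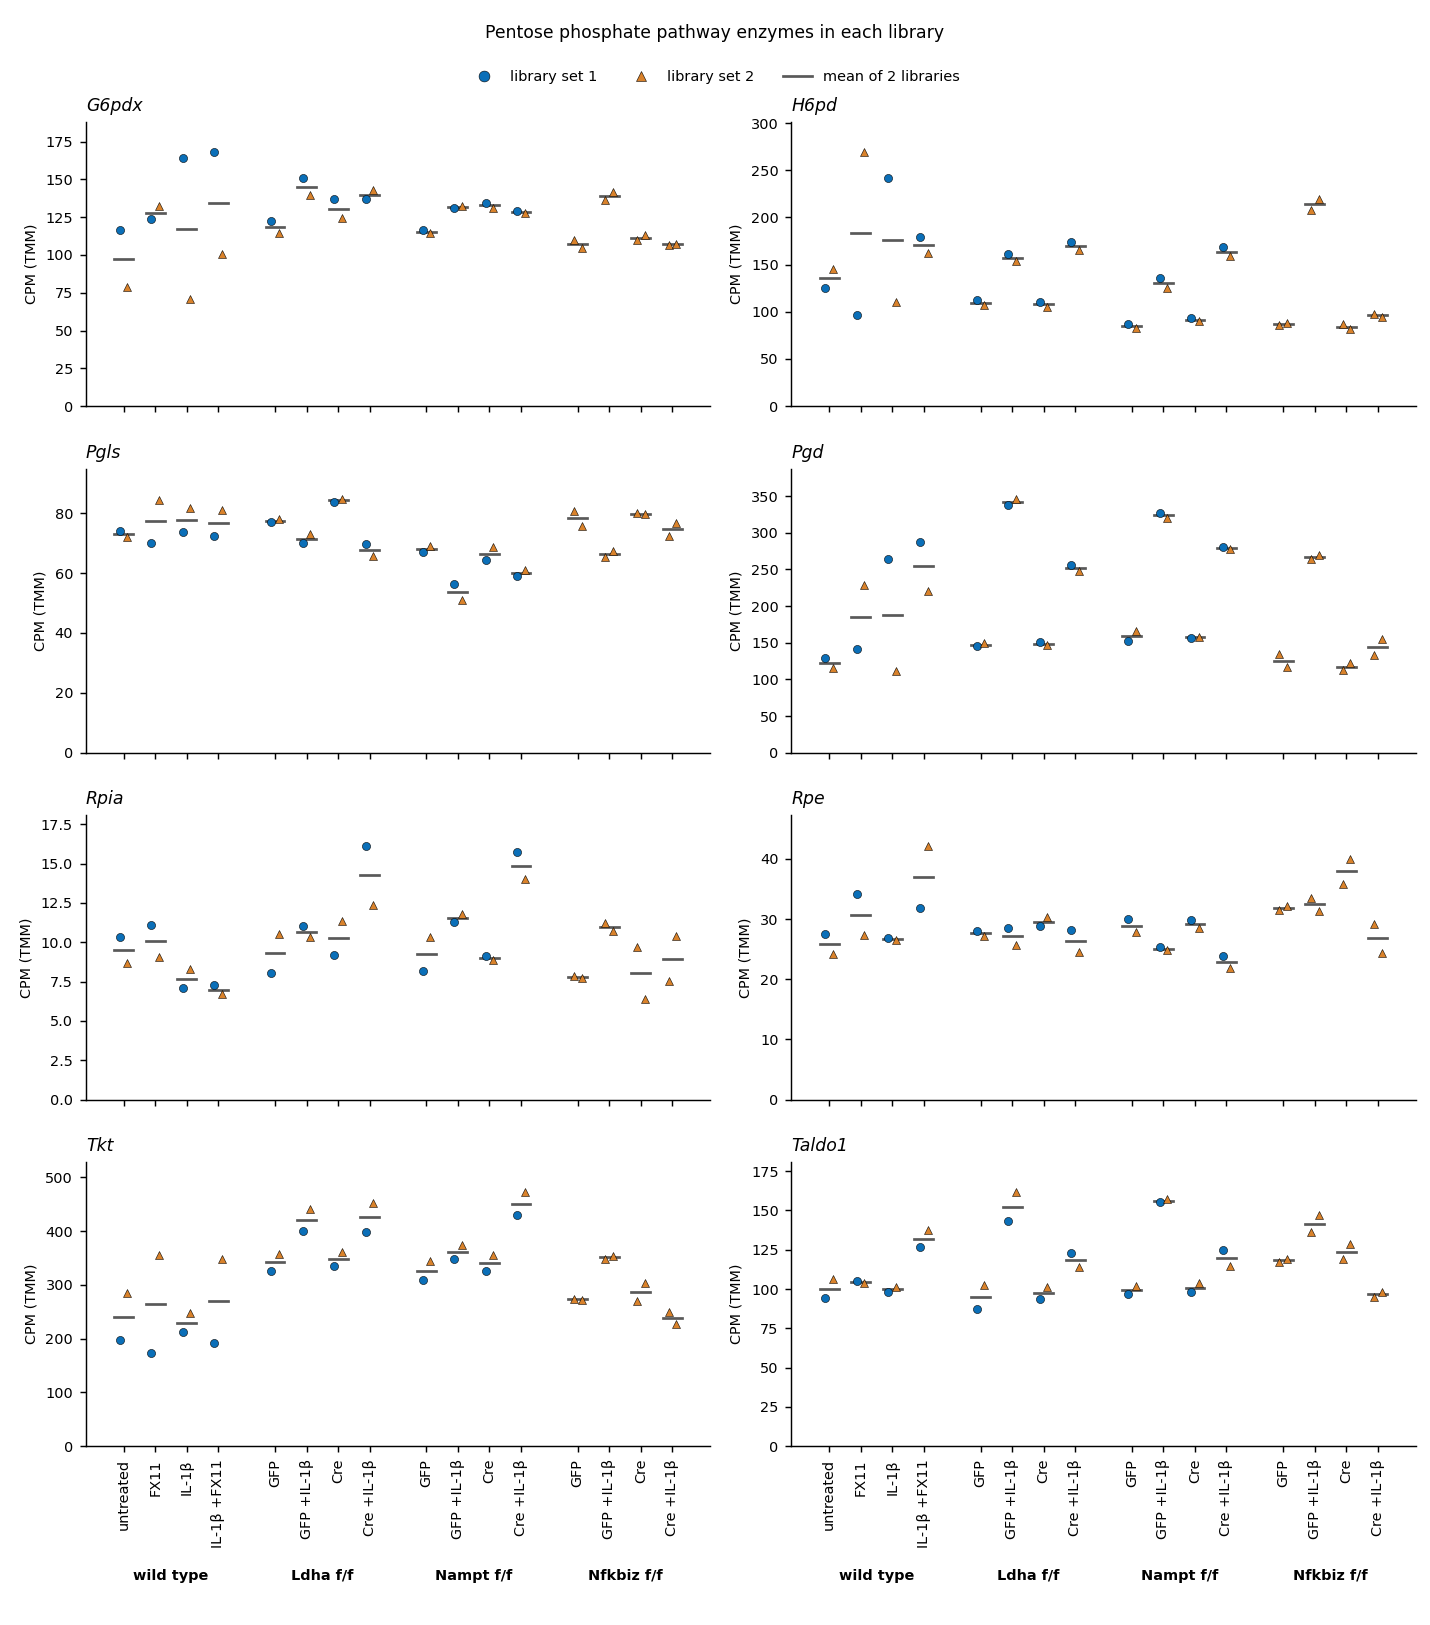
Level of each enzyme (TMM CPM) in each of the 32 libraries by condition; circles are library set 1, triangles library set 2 and bars the mean of 2. Pgd and H6pd separate libraries with IL-1β from those without it in the GFP arms, and the 2 wild-type libraries of set 2 labelled FX11 and IL-1β lie away from their partners.

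In each line alone, 5 of the 8 members were called with GFP virus, against 27.9% of 15880 genes tested in Ldha f/f cells, 35% of 16136 in Nampt f/f cells and 26.8% of 15356 in Nfkbiz f/f cells. G6pdx, H6pd, Pgd and Taldo1 rose in each line. Pgd stood at 145 and 149.7 CPM without and 337 and 346 CPM with IL-1β in Ldha f/f cells, at 152 and 166 CPM and 327 and 320.3 CPM in Nampt f/f cells, and at 134 and 117 CPM and 264 and 269.9 CPM in Nfkbiz f/f cells. The arms were separate in every line, with log2 fold changes of 1.24 (SE 0.07), 1.08 (SE 0.06) and 1.11 (SE 0.11). Tkt rose in Ldha f/f cells (0.33, adjusted p = 0.0453) and in Nfkbiz f/f cells (0.38, adjusted p = 0.0125), and its value in Nampt f/f cells was 0.20 (adjusted p = 0.094). Pgls fell in Nampt f/f cells (-0.28, adjusted p = 0.0141), with values of -0.09 and -0.22 in the others. In the lines with a library of each set, the IL-1β difference of Pgd was 1.21 in both sets of Ldha f/f cells and 1.10 and 0.95 in sets 1 and 2 of Nampt f/f cells on the log2 scale. Leaving out single libraries ended the call of Tkt in Ldha f/f cells in 5 of 8 cases and in Nfkbiz f/f cells in 4 of 8, and that of Taldo1 in Nfkbiz f/f cells in 4 of 8. The call of G6pdx was lost in Ldha f/f cells without the set 1 library with GFP and IL-1β (adjusted p = 0.0629), and in Nfkbiz f/f cells without replicate 2 with GFP (adjusted p = 0.0647) or replicate 2 with GFP and IL-1β (adjusted p = 0.0615). That of Pgls in Nampt f/f cells was lost without the set 2 library with GFP (adjusted p = 0.0871) or with GFP and IL-1β (adjusted p = 0.102). Values of members not called in single lines were 0.23 to 0.51 for Rpia and -0.15 to 0.05 for Rpe.

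The size of the IL-1β response differed between lines for H6pd and Taldo1, 2 of the 8 members, against 3.39% of all genes tested for a difference. H6pd rose from 112 and 107 CPM to 161 and 153 CPM in Ldha f/f cells and from 86.9 and 82.9 CPM to 135 and 126 CPM in Nampt f/f cells. In Nfkbiz f/f cells, which came from set 2 alone, it rose from 85.8 and 87.6 CPM to 208 and 219.9 CPM. The log2 fold changes were 0.55 (SE 0.06), 0.68 (SE 0.06) and 1.32 (SE 0.09), and the F test of their difference had an adjusted p of 1.06e-05. Taldo1 went the other way. It rose by 0.71 (SE 0.11) and 0.71 (SE 0.07) on the log2 scale in Ldha f/f and Nampt f/f cells and by 0.28 (SE 0.09) in Nfkbiz f/f cells (adjusted p of the difference 0.0253). A difference between lines was not called for Pgd (adjusted p = 0.689), G6pdx (adjusted p = 0.733), Tkt (adjusted p = 0.604), Pgls (adjusted p = 0.554), Rpe (adjusted p = 0.721) or Rpia (adjusted p = 0.865). Set 2 alone has only 1 library a condition in the Ldha and Nampt lines. The share of all genes called in that fit is not given here, so a lost call cannot be told from lost power. Within set 2 alone no member was called for a difference between lines.

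**Figure D3:**
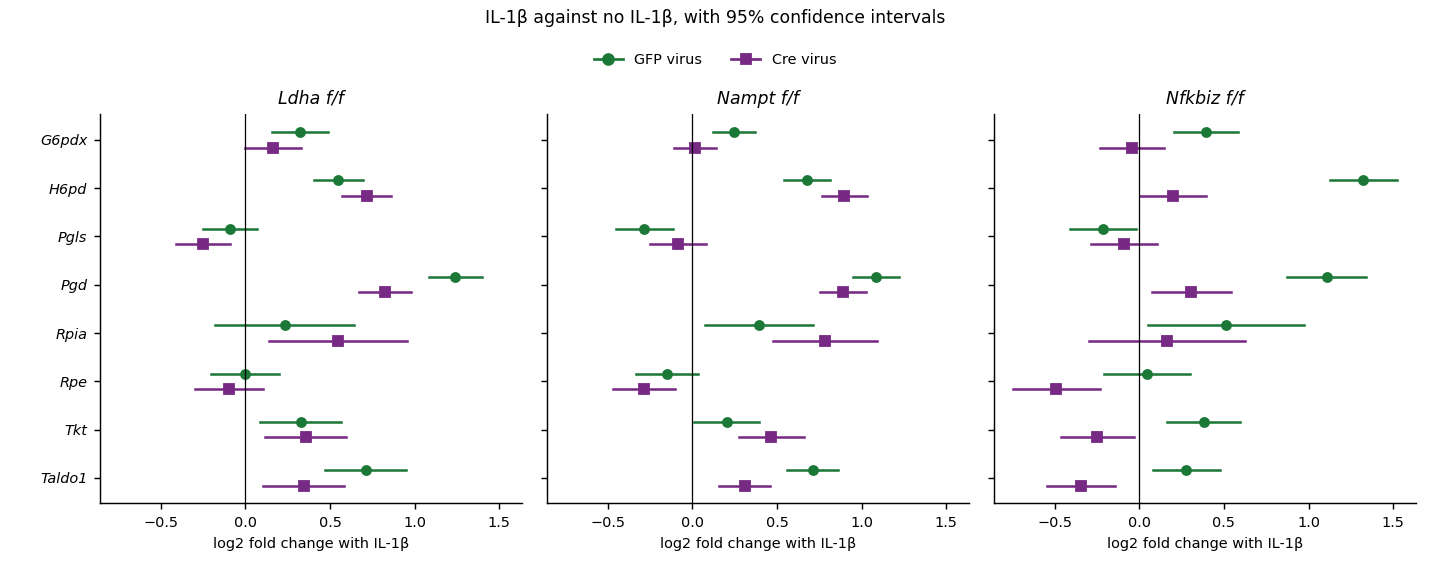
Log2 fold change with IL-1β for each enzyme and line, in cells with GFP virus (circles) and with Cre virus (squares), with 95% confidence intervals from the edgeR fit of that line. With GFP, Pgd lies above 1 in all 3 lines and H6pd at 1.32 in Nfkbiz f/f cells lies above its 0.55 and 0.68 in the other lines, whereas with Cre H6pd lies at 0.20 and Pgd at 0.31 in Nfkbiz f/f cells.

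Markers of other cells were measured beside this response. The summed level of the 9 chondrocyte markers went from 70846 to 90774 CPM without IL-1β to 25288 to 31650 CPM with it in the GFP libraries. All 7 macrophage markers, 4 endothelial markers, 6 fibroblast markers and 6 skeletal muscle markers were detected. The macrophage sum went from 14.0 to 24.8 CPM to 26.3 to 52.4 CPM, and the fibroblast sum from 1019 to 5979 CPM to 759 to 4431 CPM. The lines differed in these sums. With GFP and no IL-1β the fibroblast sum was 1019 to 1220 CPM in Nfkbiz f/f, 5876 to 5979 CPM in Ldha f/f and 4942 to 5076 CPM in Nampt f/f cells. The skeletal muscle sum was 9.99 to 12.1 CPM, 39.8 to 40.9 CPM and 54.1 to 57.5 CPM in the same order. C1qa, Cdh5, Myog, Myod1 and Ckm were at 0 in at least 1 of the 32 libraries. The part of all these markers in the results, the differences between lines included, was not tested.

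Without IL-1β, few members were called between Cre and GFP virus. In Ldha f/f cells no member was called, where 5.52% of all genes were, none had an unadjusted p under 0.05, and DESeq2 and limma called none, with log2 fold changes from -0.03 for H6pd to 0.14 for G6pdx. The Nfkbiz f/f line had no member called where 0.26% of genes were, and the other tools and the unadjusted p gave none either, with values from -0.10 for Pgd to 0.25 for Rpe. In Nampt f/f cells G6pdx was the 1 member called, where 14.4% of genes were. It stood at 117 and 114 CPM with GFP and at 135 and 131 CPM with Cre, which do not overlap, and the log2 fold change was 0.20 (SE 0.06, adjusted p = 0.0351). This call was lost in 6 of the 8 fits that left out a library, and the other 7 members had values from -0.03 to 0.11. In the mean over the 3 lines G6pdx was again the 1 member called, with a log2 fold change of 0.14 (SE 0.04, adjusted p = 0.00729), against 19% of all genes, and the other members had values from -0.02 for Pgd to 0.13 for Rpe. No member was called for a difference of the Cre effect between lines without IL-1β, where 3.62% of all genes were, and none had an unadjusted p under 0.05 or was called by DESeq2 or limma.

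With IL-1β, Pgd and Taldo1 fell with Cre in all 3 lines, and in Nfkbiz f/f cells G6pdx, H6pd and Tkt fell with them. H6pd, Tkt and Rpia rose in Nampt f/f cells. The share of members called was above that of all genes in Nfkbiz f/f cells, below it in Ldha f/f cells and near it in Nampt f/f cells. These edgeR fits did not use the library set. With the set as a replicate block, H6pd (adjusted p = 0.045) and Rpia (adjusted p = 0.0242) were also called in Ldha f/f cells. Pgls was also called in Nampt f/f cells (adjusted p = 0.0304). The share of all genes in the block fits is not given here. The comparison of Cre with GFP under IL-1β shares its GFP and IL-1β libraries with the comparison of IL-1β, so the values of both are given side by side and no overlap is drawn from them.

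In Nfkbiz f/f cells 5 of the 8 members were called and all 5 fell, against 17.4% of all genes called, 8.16% higher and 9.2% lower. H6pd stood at 208 and 219.9 CPM with GFP and IL-1β and at 97.4 and 94.8 CPM with Cre and IL-1β. Its levels without IL-1β were 85.8 and 87.6 CPM with GFP. The log2 fold change was -1.17 (SE 0.09, adjusted p = 2.29e-06). Pgd went from 264 and 269.9 CPM to 133 and 155 CPM, and its level without IL-1β was 134 and 117 CPM. The libraries with Cre and IL-1β lay closer to those without the cytokine than to those with GFP and IL-1β, and the log2 fold change was -0.90 (SE 0.11, adjusted p = 8.8e-05). Among the non-oxidative enzymes, Tkt went from 348 and 354 CPM to 250 and 228 CPM (-0.57, SE 0.10, adjusted p = 0.00168). Taldo1 went from 136 and 147 CPM to 94.8 and 98.4 CPM (-0.56, SE 0.09, adjusted p = 0.001), and its libraries without IL-1β were at 117 and 119 CPM with GFP and 119 and 128 CPM with Cre. G6pdx went from 136 and 142 CPM to 107 and 107 CPM (-0.39, SE 0.09, adjusted p = 0.00853). The libraries of the arms did not overlap for any of these 5. Each arm has only 2 libraries, and the share of all genes so separated was not counted. The call of G6pdx was lost without either library with GFP and IL-1β (adjusted p = 0.0617 and 0.0942). Pgls had a value of 0.15 (adjusted p = 0.275), Rpia of -0.30 (adjusted p = 0.365) and Rpe of -0.29 (adjusted p = 0.122). The summed chondrocyte markers were at 29590 to 31650 CPM with GFP and IL-1β and at 35485 to 38251 CPM with Cre and IL-1β, and their part in the result was not tested.

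In Ldha f/f cells 2 of the 8 members were called and both fell, against 34% of all genes. Pgd went from 337 and 346 CPM to 256 and 248 CPM, with a log2 fold change of -0.41 (SE 0.07, adjusted p = 0.00134). Its level without IL-1β was 145 and 149.7 CPM, below both arms with IL-1β. Taldo1 went from 143 and 161 CPM to 123 and 114 CPM (-0.33, SE 0.11, adjusted p = 0.0364), and its call was lost without any of 3 libraries, at -0.38, -0.22 and -0.32. H6pd had a value of 0.14 (95% CI -0.0040 to 0.28, adjusted p = 0.124) and G6pdx of -0.02 (adjusted p = 0.87). Among the rest Rpia had a value of 0.45 (adjusted p = 0.0815), Tkt of 0.05, Rpe of -0.01 and Pgls of -0.04.

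In Nampt f/f cells 5 of the 8 members were called, against 48.4% of all genes, 25% higher and 23.4% lower, which leaves a share near the background. H6pd rose from 135 and 126 CPM to 168 and 159 CPM (0.33, SE 0.06, adjusted p = 0.000923). Tkt rose from 347 and 374 CPM to 430.4 and 472 CPM (0.33, SE 0.09, adjusted p = 0.00954). Both were higher in each library with Cre than in either with GFP. Rpia rose from 11.3 and 11.8 CPM to 15.7 and 14.0 CPM (0.37, SE 0.14, adjusted p = 0.0477). Pgd fell from 327 and 320.3 CPM to 280.1 and 278 CPM (-0.21, SE 0.06, adjusted p = 0.0147), and Taldo1 from 155 and 157 CPM to 125 and 115 CPM (-0.38, SE 0.07, adjusted p = 0.000821). Pgls had a value of 0.17 (adjusted p = 0.0921), Rpe of -0.13 (adjusted p = 0.244) and G6pdx of -0.03 (adjusted p = 0.689). The call of Rpia was lost in 6 of the 8 fits that left out a library. The call of Pgd was lost without the set 2 library of either arm (adjusted p = 0.0578 and 0.0577). That of Tkt was lost without the set 1 library with GFP and IL-1β (0.22, adjusted p = 0.148) and without the set 2 library with Cre and IL-1β (0.25, adjusted p = 0.0833). Within the sets the Pgd difference was -0.22 and -0.20, and that of Taldo1 -0.31 and -0.45. In Cre libraries with IL-1β the summed chondrocyte markers were at 13177 to 14561 CPM in Ldha f/f and 14261 to 15016 CPM in Nampt f/f cells, against 26250 to 26410 CPM and 25288 to 26223 CPM with GFP. The 4 endothelial markers summed to 16.3 to 21.1 CPM and 22.4 to 26.3 CPM there, against 3.2 to 7.3 CPM with GFP and IL-1β over the 3 lines. The fibroblast sum was at 2683 to 2809 CPM with Cre against 4333 to 4431 CPM with GFP in Ldha f/f cells, and at 2342 to 2375 CPM against 3699.7 to 3715 CPM in Nampt f/f cells. The skeletal muscle sum was at 31.6 to 33.9 CPM against 45.8 to 48.1 CPM, and at 57.2 to 59.4 CPM against 100.3 to 102.7 CPM. The part of these markers in the result was not tested. Nfkbiz itself was at 177 and 162 CPM with GFP and IL-1β and at 70.0 and 64.8 CPM with Cre and IL-1β in Ldha f/f cells, and at 199.7 and 199 CPM and 67.9 and 59.5 CPM in Nampt f/f cells.

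In the mean over the 3 lines 5 members fell with Cre under IL-1β and none rose, against 53.9% of all genes called, 24.8% higher and 29.1% lower. Pgd fell by 0.52 on the log2 scale (SE 0.04, adjusted p = 7.5e-10) and Taldo1 by 0.43 (SE 0.05, adjusted p = 2.48e-08). H6pd had a mean of -0.24, G6pdx of -0.16 and Rpe of -0.15 (adjusted p = 0.0211), and the call of Rpe was lost in 6 of the fits that left out a library. Tkt (-0.07), Pgls (0.08) and Rpia (0.16) were not called. These means cover lines that moved apart. The Cre effect with IL-1β differed between lines for 4 of the 8 members, against 33.5% of all genes: H6pd (adjusted p = 5.78e-12), Tkt (adjusted p = 5.6e-07), Pgd (adjusted p = 0.000166) and G6pdx (adjusted p = 0.00981). H6pd had values of 0.14, 0.33 and -1.17 in the Ldha, Nampt and Nfkbiz lines. Tkt had values of 0.05, 0.33 and -0.57 in the same order. For Taldo1, at -0.33, -0.38 and -0.56, a difference was not called (adjusted p = 0.342), nor for Rpia (adjusted p = 0.0648), Pgls (adjusted p = 0.134) or Rpe (adjusted p = 0.332). The fit of set 2 has the limits named above, 1 library a condition in the Ldha and Nampt lines and no share of all genes. Within set 2 alone 2 of the 4 differences were called.

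**Figure D4:**
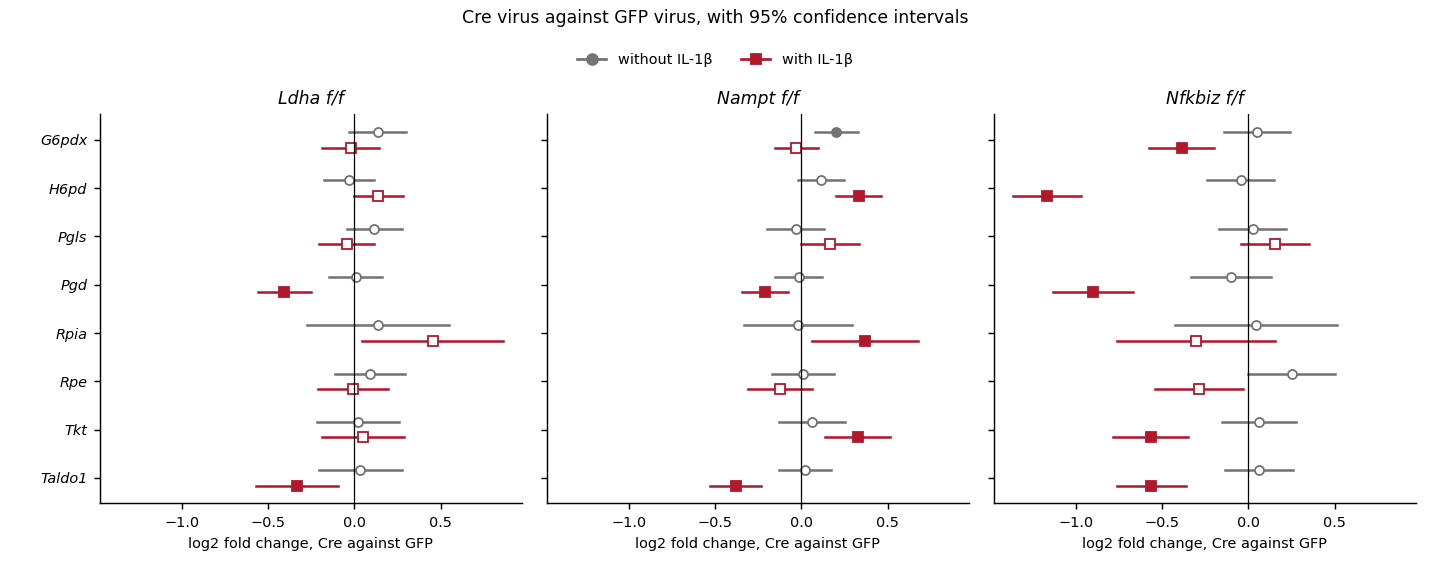
Log2 fold change of Cre against GFP for each enzyme and line, without and with IL-1β, with 95% confidence intervals; filled markers were called at an adjusted p of 0.05 or less and open markers were not. With IL-1β, Pgd and Taldo1 lie below 0 in all 3 lines, whereas H6pd lies at 0.33 in Nampt f/f and at -1.17 in Nfkbiz f/f cells.

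Whether Cre altered the IL-1β response itself was tested as an interaction in each line. In Nfkbiz f/f cells 4 of the 8 members were called, all with a smaller response after Cre, against 5.19% of all genes. H6pd had an IL-1β log2 fold change of 1.32 with GFP and 0.20 with Cre, an interaction of -1.12 (SE 0.13, adjusted p = 0.000237). For Pgd the values were 1.11 and 0.31, an interaction of -0.80 (SE 0.15, adjusted p = 0.00788). For Tkt and Taldo1, of the non-oxidative branch, the values lay above 0 with GFP and below 0 with Cre. No test of the values with Cre alone is given here. Tkt had 0.38 with GFP and -0.25 with Cre (interaction -0.63, SE 0.14, adjusted p = 0.0206), and Taldo1 had 0.28 and -0.34 (interaction -0.62, SE 0.13, adjusted p = 0.0137). Of the fits that left out a library, the call was kept in all 8 for H6pd, and was lost in 3 for Pgd and in 5 each for Tkt and Taldo1. The other 4 members had interactions of -0.44 (G6pdx, adjusted p = 0.0655), -0.54 (Rpe, adjusted p = 0.0937), -0.35 (Rpia) and 0.13 (Pgls). In Ldha f/f cells 1 member was called, against 11.5% of all genes. Pgd had 1.24 with GFP and 0.83 with Cre, an interaction of -0.41 (SE 0.10, adjusted p = 0.0224), which was lost in 5 of 8 such fits. The others ranged from -0.37 for Taldo1 (adjusted p = 0.163) to 0.32 for Rpia. In Nampt f/f cells 1 member was called, against 22% of all genes. Taldo1 had 0.71 with GFP and 0.31 with Cre, an interaction of -0.40 (SE 0.10, adjusted p = 0.0123), lost without the set 2 library with Cre and IL-1β (-0.35, adjusted p = 0.0521). The others ranged from -0.23 for G6pdx (adjusted p = 0.0601) to 0.39 for Rpia (adjusted p = 0.197).

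In wild-type cells no member was called in any of the 4 comparisons with edgeR, and 0% of the 15461 genes tested were called in each, FX11 against untreated, IL-1β against untreated, and both agents against IL-1β or against untreated. Unadjusted p under 0.05 was found for 68, 153, 102 and 860 genes and for 0, 0, 1 and 2 members in that order. DESeq2 called 2, 6, 1 and 153 genes and limma called 0 in each, neither with a member among them. Values of the 8 members ran from 0.07 to 0.61 for FX11, from -0.31 to 0.61 for IL-1β, from -0.14 to 0.47 for both agents against IL-1β and from -0.45 to 1.05 for both against untreated. The 2 libraries that ran against their labels stand in the arms labelled FX11 and IL-1β and enter the spread of the whole model. For Pgd the level was at 129.6 and 115 CPM untreated in sets 1 and 2, at 264 CPM in the set 1 library labelled IL-1β but at 112 CPM in the set 2 library so labelled, and at 141 CPM in the set 1 library labelled FX11 but at 229 CPM in the set 2 library so labelled. With both agents it was at 287 and 221 CPM. H6pd was at 125 and 145 CPM untreated, 242 and 110.1 CPM labelled IL-1β, 97.0 and 269 CPM labelled FX11, and 179 and 162 CPM with both. In set 2 both genes were higher in the library labelled FX11 than in the one labelled IL-1β, and in set 1 lower.

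Without those 2 libraries the wild-type model called no member and 0, 1, 0 and 1 of all genes, and IL-1β against untreated gave a log2 fold change of 1.10 for Pgd (adjusted p = 0.327) and 0.82 for H6pd (adjusted p = 0.414). In one model of the 30 other libraries, where a lone library is assumed to vary like the rest, a choice made after seeing the data, IL-1β raised Pgd by 1.10 (adjusted p = 6.74e-06), H6pd by 0.82 (adjusted p = 6.78e-06) and G6pdx by 0.69 (adjusted p = 0.0126). This model called 0.217%, 16.3%, 0.798% and 17.5% of all genes in the 4 comparisons. In it H6pd was lower with FX11 than untreated (-0.51, adjusted p = 0.048) and lower with both agents than with IL-1β (-0.50, adjusted p = 0.02). Pgd with both agents differed from IL-1β by -0.05 (adjusted p = 0.9). With all libraries under their labels the FX11 value of H6pd was above 0, so its direction depends on the library labelled FX11 in set 2. Within set 1 alone, with 1 library a condition and no test, IL-1β against untreated gave 1.02 for Pgd, 0.94 for H6pd, 0.49 for G6pdx, 0.11 for Tkt, 0.06 for Taldo1 and -0.52 for Rpia on the log2 scale.

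Over all 16 conditions the order of the levels differed between members. Pgd and G6pdx were highest in Ldha f/f cells with GFP and IL-1β, at 342 ± 6.00 CPM and 145 ± 7.95 CPM (SD, n = 2). H6pd was highest in Nfkbiz f/f cells with GFP and IL-1β, at 214 ± 8.36 CPM, and lowest in the same line with Cre alone, at 84.3 ± 3.54 CPM. Tkt and Rpia were highest in Nampt f/f cells with Cre and IL-1β, at 451 ± 29.1 CPM and 14.9 ± 1.19 CPM. Taldo1 was highest in Nampt f/f cells with GFP and IL-1β, at 156 ± 1.22 CPM, where Pgls was lowest, at 53.6 ± 3.72 CPM. Rpe was highest in Nfkbiz f/f cells with Cre alone, at 38.0 ± 2.98 CPM. Most neighbours in these orders overlapped. Of 15 neighbouring pairs a member, the libraries did not overlap in 5 for H6pd and in 4 each for Pgls and Pgd. They did not overlap in 2 each for G6pdx, Rpia, Tkt and Taldo1, and in 1 for Rpe. Overlap of groups of 2 libraries is no test. The share over all genes was not counted, so these counts have no background to be read against.

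Related genes were taken from 5 lists, and their counts are to be read against the share of all genes. With IL-1β in the mean over the 3 lines, where 27.7% of all genes were higher and 25.3% lower, 7 of 15 redox enzymes that use NADPH rose and none fell, with a median log2 fold change of 0.54, among them Gsr, glutathione reductase (1.98), Txnrd1, thioredoxin reductase (1.45), and Hmox1, heme oxygenase (1.28). Of 14 glycolytic genes at the branch point 9 rose and 2 fell (median 0.44), including Hk1, hexokinase (0.93), and Gpi1, the isomerase that competes with G6pdx for glucose 6-phosphate (0.83). Of 15 users of ribose phosphate 9 rose and 1 fell (median 0.22), and Rrm2, a subunit of ribonucleotide reductase, rose by 0.63. The list of other sources of NADPH was split, 6 of 14 higher and 7 lower (median -0.09). Me2, a malic enzyme that works mainly with NAD, was at 0.71 and Aldh1l2, a folate enzyme, at -0.72. The list also held genes whose enzymes make no NADPH themselves, Mthfd1l and the NAD kinase genes Nadk and Nadk2. Of 10 accessory genes of the pathway 1 rose and 1 fell, Pgm1 (0.90) and Shpk, the kinase that makes sedoheptulose 7-phosphate (-1.26).

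With Cre under IL-1β, 34% of all genes were called in Ldha f/f cells, 48.4% in Nampt f/f cells and 17.4% in Nfkbiz f/f cells. Of 14 glycolytic genes in Nfkbiz f/f cells 10 fell and none rose (median -0.61), including Pfkfb3, which makes the activator of phosphofructokinase (-1.28), and Pfkp (-1.10). Of 13 enzymes that use NADPH 5 fell and 1 rose (median -0.30), with Gsr at -1.43 and Hmox1 at -1.23. In Ldha f/f cells 4 glycolytic genes fell and 2 rose (median -0.12), and in Nampt f/f cells 6 fell and 5 rose (median 0.06). Pfkfb4 rose in both, by 2.42 and 2.95. Of the genes listed as other NADPH sources 7 of 14 fell and 2 rose in each of these lines. Mthfd1l, which makes no NADPH itself, was at -0.87 and -1.01. In Nfkbiz f/f cells 5 genes of this list fell and 4 rose. Of 10 accessory genes 4 rose and 1 fell in Ldha f/f cells (median 0.46), and 6 rose and 3 fell in Nampt f/f cells (median 0.83). In Nfkbiz f/f cells 1 rose and 1 fell (median -0.01). Among them Prps2, which makes phosphoribosyl pyrophosphate from ribose 5-phosphate, rose in all 3 lines, by 0.84, 0.91 and 0.71. The Cre effect with IL-1β differed between lines for 11 of 14 glycolytic genes and 8 of 15 enzymes that use NADPH. It also differed for 8 of 14 genes listed as NADPH sources, 7 of 10 accessory genes and 6 of 15 users of ribose phosphate. The share of all genes was 33.5%. In the wild-type comparisons none of the listed genes was called by edgeR.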

How the data were processed

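Ribosomal RNA was depleted (KAPA Ribo-Erase) and, per the labels, reads were aligned with STAR (2.0.4b) to GRCm38 and counted with featureCounts (1.45). The authors deposited unnormalized counts of uniquely aligned reads for 41388 genes in each of 32 libraries. The deposited CPM values are the count scaled by the library's total, and the deposited RPKM values divide these by gene length. Neither entered a test. Library totals were 23783890 to 39959888 in set 1 (12 libraries) and 15830658 to 29248326 in set 2 (20 libraries), the sets being told apart by the style of their titles.

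Identifiers were named with GENCODE M21 (40340 of 41388), and 355 ribosomal RNA genes were left out. Genes over 1 CPM in at least 1 library were tested with the quasi-likelihood F test of edgeR (4.0.16, R 4.3.3) with TMM factors, two-sided, and were called at a Benjamini-Hochberg adjusted p of 0.05 or less over all genes tested. Each line was modelled alone (8 libraries, 4 groups of 2). Means over lines and differences between lines came from 24 libraries with the library set as a covariate. The script was tested on simulated data. DESeq2 (1.42.0), limma's voomWithQualityWeights, other normalization, no filter, joint models and leaving out each library were tried as alternatives.

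The members, the 5 gene lists and the markers were chosen with earlier results of these data known. All 8 members are accounted for in every comparison, by value or by range, and of each list up to 3 genes with the smallest adjusted p. The genes closest to each member were the 3 with the highest correlation over 16 condition means. Promoter windows were of RefSeq, GRCm38.p6.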

Additional observations from a re-analysis of the deposited data

Results flagged for a closer look

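The following results are listed because effects differed between groups in a test of the difference itself. In Nfkbiz f/f cells the IL-1β response was smaller with Cre than with GFP for H6pd (interaction -1.12 on the log2 scale), Pgd (-0.80), Tkt (-0.63) and Taldo1 (-0.62). It was smaller for Pgd in Ldha f/f cells (-0.41) and for Taldo1 in Nampt f/f cells (-0.40). Between lines, the IL-1β response with GFP virus differed for H6pd (adjusted p = 1.06e-05), which rose most in Nfkbiz f/f cells, and for Taldo1 (adjusted p = 0.0253), which rose least there. The effect of Cre with IL-1β differed between lines for H6pd (adjusted p = 5.78e-12) and Tkt (adjusted p = 5.6e-07), which rose in Nampt f/f and fell in Nfkbiz f/f cells, and for Pgd (adjusted p = 0.000166) and G6pdx (adjusted p = 0.00981), which were lowest against GFP in Nfkbiz f/f cells. The Nfkbiz f/f libraries all belong to set 2, whereas the other lines have 1 library of a condition in each set, and the values within set 2 stand with the alternatives. No library stood apart from the other 5 of its group in any of the 32 groups of 6 libraries that were checked, 8 members in 4 arms. Each group pooled the floxed lines, so differences between lines could hide a library that stood apart. The wild-type libraries were not in this check.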

How the results depend on the processing

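Counts of members called are given as the reported count, then the alternative. Unless a percentage is given, no alternative count in this section has the share of all genes called in its fit beside it. Those counts thus have no background to be read against. One model over all 32 libraries took the counts from 5 to 2 for IL-1β in Ldha f/f and Nfkbiz f/f cells and to 3 in Nampt f/f cells, from 2 to 1, 5 to 1 and 5 to 2 for Cre with IL-1β in the Ldha, Nampt and Nfkbiz lines, from 1 to 0, 1 to 0 and 4 to 1 for the interactions in the same order, from 1 to 0 for Cre without IL-1β in Nampt f/f cells and from 0 to 3 for both agents against untreated in wild type. This model pools the spread with the 2 wild-type libraries that ran against their labels. Without them (30 libraries, added after seeing the data) the counts were 3 for IL-1β in Ldha f/f and Nfkbiz f/f cells, 0 for the Ldha f/f interaction and for Cre without IL-1β in Nampt f/f cells, 2 for Cre with IL-1β in Nampt f/f cells, and 1, 3, 1 and 5 in the wild-type comparisons (0.217%, 16.3%, 0.798% and 17.5% of all genes), where H6pd with FX11 was at -0.51 in place of a value above 0. The mean IL-1β response over the 16 control libraries, wild type included, gave 4 in place of 7. The next counts, of set 2 alone, rest on 1 library a condition in the Ldha and Nampt lines. They stand without the share of all genes called in that fit. Set 2 alone gave 0 for the mean of Cre without IL-1β, 3 in place of 5 with it, and 0 and 2 for the differences between lines in IL-1β response and in Cre effect with IL-1β, and leaving out the library set as a covariate gave 1 for the former. voomWithQualityWeights gave 2 for the Nampt f/f interaction and for the mean of Cre without IL-1β. No filter gave 2 for that interaction and 0 for Cre without IL-1β in Nampt f/f cells. Where a cause is not given, the cause was not tested.

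Leaving out 1 library at a time, where an arm with 1 library left is assumed to vary like the others, gave 3 to 5, 4 to 5 and 2 to 6 members for IL-1β in the Ldha, Nampt and Nfkbiz lines, 1 to 2, 2 to 5 and 4 to 6 for Cre with IL-1β, 0 to 1, 0 to 2 and 1 to 6 for the interactions, and 0 to 1 for Cre without IL-1β in Nampt f/f cells. Over the 3 lines it gave 7 in every fit for IL-1β, 1 to 2 and 4 to 7 for Cre without and with IL-1β, and 1 to 2 and 3 to 5 for the differences between lines. Of 584 repeats of called values 520 kept the call and 64 lost it, none with a change of sign. Under the other settings 340 of 390 kept it and 50 lost it, again with no change of sign. Values not called in the reported fit were less stable. With 1 library left out 65 of 1016 such repeats changed sign. Under the other settings 24 of 874 changed sign, 1 of these with a call, and 32 gained a call without a change of sign.

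With the library set as a replicate block, which pairs 1 library of each set, the calls for Cre with IL-1β in Ldha f/f cells went from 2 to 4, and those for the interaction from 1 to 2 in Ldha f/f and from 1 to 5 in Nampt f/f cells (G6pdx -0.23, H6pd 0.22, Pgd -0.20, Tkt 0.26 and Taldo1 -0.40). For IL-1β in Nampt f/f cells it added Tkt (0.20, adjusted p = 2.41e-05) and Rpia (0.40, adjusted p = 0.0166). The share of all genes called in these block fits is not given here, so added calls cannot be told from gained power. Deviations from group means of libraries of one set correlated with a median r of 0.53 and 0.52 in those lines. In Nfkbiz f/f cells the replicate number is arbitrary (median r -0.002), and the block on it left the counts within 1.5 times. The labels do not state that a set shared a day or litter. Depth limits Rpia most, at 6.41 to 16.1 CPM.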

Other observations

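The genes whose levels followed each enzyme most closely over the 16 condition means are given as a description, since conditions share libraries' depth and treatment. Among 17094 genes, Pgd was followed by Esd (r = 0.98), Srxn1, the reductase of oxidized peroxiredoxins (r = 0.98), and Riok3 (r = 0.97). Taldo1 was followed by Ggct (r = 0.89), 9530059O14Rik (r = 0.87) and Prdx1, a peroxiredoxin (r = 0.87). H6pd was followed by Nek6 (r = 0.94), Trip10 (r = 0.93) and Gch1, the first enzyme of tetrahydrobiopterin synthesis (r = 0.92). For G6pdx they were Emp2 (r = 0.92), Ddx23 (r = 0.91) and Cldnd1 (r = 0.88), and for Pgls Crot (r = 0.88), Letmd1 (r = 0.88) and Pnrc2 (r = 0.87). For Rpia they were Nudt1 (r = 0.93), Hhatl (r = 0.92) and Paqr9 (r = 0.92), for Rpe Hfe (r = 0.86), Uqcc2 (r = 0.85) and Gm14303 (r = 0.85), and for Tkt Suz12, Elfn1 and U2af1 (r = 0.94 each). No member was among the 3 genes closest to another member. Among pairs of members r was highest for G6pdx and Pgd (0.80), Rpia and Tkt (0.78) and Pgd and Taldo1 (0.74), and lowest for Rpia and Rpe (-0.64) and for Pgls and Pgd (-0.63).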
